A study of Mus musculus with 12 samples.

Results

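Cells expressing RUNX1-ETO (RE) were compared with cells carrying the empty vector (Mig), in the arm of the study that received no GM-CSF. Lineage-negative cells from the marrow of C57Bl/6J mice were cultured with IL-3, SCF and FLT3 ligand and infected for 24 h with MigR1 retrovirus, either empty or encoding HA-tagged RUNX1-ETO. They then spent 24 h in StemSpan medium to which no GM-CSF was added, so that RE cells had expressed the fusion for 48 h. Cells that carried the vector's GFP and surface c-Kit and lacked lineage markers were sorted, and their RNA was measured on Illumina BeadChips (Mouse Ref-8 v2.0). The comparison used 3 Mig and 3 RE arrays, 6 of the 12 arrays of the study; the other 6 were from the same kinds of cells given 10 ng/mL GM-CSF for 24 h. All probes with a gene symbol were included: 23978 of 25697 probes, for 16593 genes, of which 10800 were above background on enough arrays to be tested and 5793 were not. The fusion was overexpressed from a retrovirus, in mixed transduced cells and not in a clone, and the labels name no other genetic change in either group. The labels do not tell whether replicates are separate animals or separate cultures; the p-values therefore reflect the spread among these samples alone, and that spread may be technical.

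RUNX1 is a DNA-binding transcription factor that blood stem and progenitor cells need. RUNX1-ETO, formed by a chromosome translocation of acute myeloid leukaemia, joins its DNA-binding part to ETO (encoded by Runx1t1), a protein that recruits corepressors and histone deacetylases. Interferon-stimulated genes are switched on when interferon receptors activate transcription factors that bind a promoter element called the ISRE; IRF family members such as IRF7 bind related letters.

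The mean deposited signal was 597, 431 and 449 on the Mig arrays and 318, 338 and 429 on the RE arrays, and 47.7% to 60.1% of probes were above the estimated background. Across tested units, correlations ran from 0.972 to 0.989 within a group and from 0.900 to 0.935 between the groups, so that every array was closest to its own group. Values below are log2 normalized signals, and a difference of 1 on that scale is 2-fold. Levels are compared only within a probe.

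The labels were checked at the probes of the 2 genes that make up the fusion. The level of the Runx1t1 probe ILMN_2662450 was 6.21, 6.10 and 6.15 on the Mig arrays, all under background, and 7.77, 8.01 and 8.19 on the RE arrays (limma adjusted p = 1.58e-06). The groups did not overlap. The other Runx1t1 probe, ILMN_1230714, was above background on 1 of 3 Mig and 0 of 3 RE arrays and was not tested. At the Runx1 probe the levels were 9.29, 9.25 and 8.79 in Mig and 9.53, 9.87 and 10.12 in RE, a rise of 0.73 (SE 0.16, adjusted p = 0.00399) that was lost when arrays were scaled to a common median (0.31, adjusted p = 0.404). Whether these probes detect the fusion's own transcript was not tested.

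RE cells differed from control cells at 4571 of 11729 tested units, which were 10800 genes and 929 probes with no gene listed. This was 39% of units at a limma adjusted p of 0.05, with 18.2% called higher (2129 units) and 20.8% called lower (2442 units). The rises reached further than the falls: 202 genes rose at least 4-fold and 66 at least 8-fold, whereas 21 genes fell at least 4-fold and 2 at least 8-fold. At 2-fold or more the counts were 741 units higher (6.32% of all) and 460 lower (3.92%). The split between directions depended on the scaling. Calls were 46.6% higher after quantile normalization and 26.3% higher (1236 higher, 3462 lower) with arrays scaled to a common median, which moved the median of all units from -0.04 to -0.12. The 3 RE arrays lay wholly above or below the 3 Mig arrays at 46.8% of all units.

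**Figure D1:**
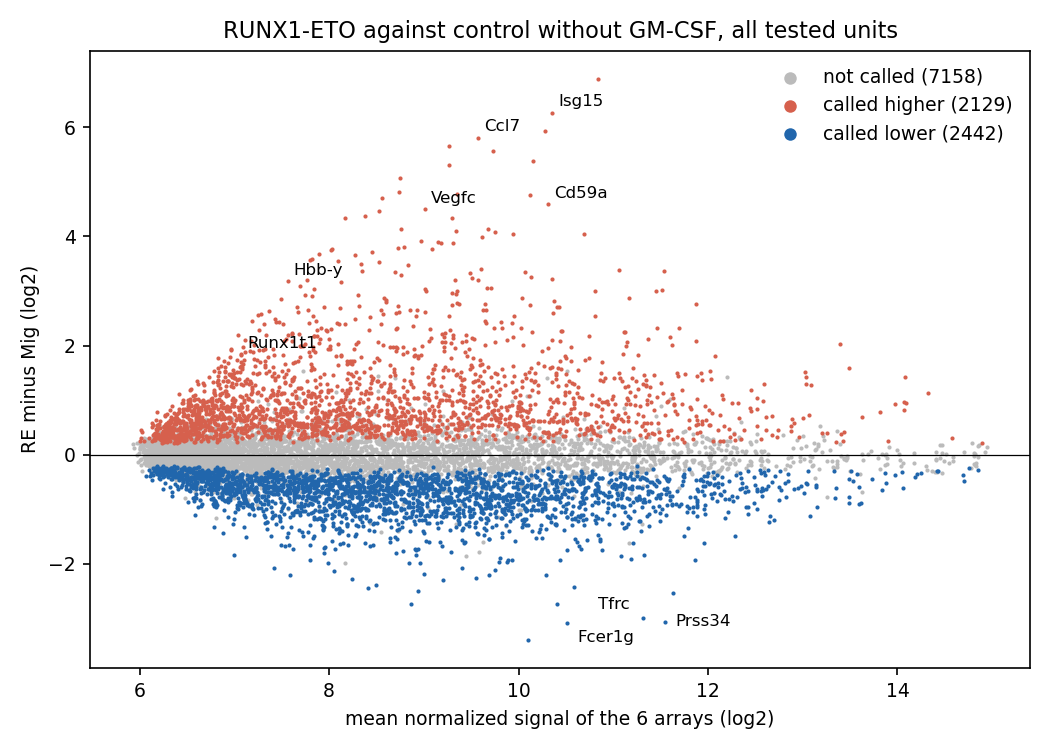
Each point is 1 of the 11729 tested units, with its mean normalized log2 signal over the 6 arrays on the x axis and the RE minus Mig log2 difference on the y axis; red points were called higher (2129), blue points lower (2442), and grey points not called. Rises reach a log2 difference above 6 (Isg15), while falls end near -3 (Fcer1g, Prss34, Tfrc).

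The genes that rose most belonged largely to the interferon response and to the chemokines. The promoters of the 4 largest risers that hold ISRE letters are shown here to mark where the letters lie, and were picked for holding them. They are the 180 bases before the transcription start, 5′ to 3′ on the gene's strand, from RefSeq (GRCm38.p6), and capitals mark the ISRE letters, which are GAAA, any 2 bases and GAAA, on either strand. The Isg15 promoter (chr4:156200819-156200998, minus strand) holds 3 overlapping matches that begin 78, 72 and 66 bases before the start. The Ifit3 promoter (chr19:34583349-34583528, plus strand) holds 2, beginning 156 and 122 bases before it. The Gbp2 promoter (chr3:142620483-142620662, plus strand) holds 1 at 59 bases and the Rsad2 promoter (chr12:26456453-26456632, minus strand) 1 at 120 bases.
Isg15: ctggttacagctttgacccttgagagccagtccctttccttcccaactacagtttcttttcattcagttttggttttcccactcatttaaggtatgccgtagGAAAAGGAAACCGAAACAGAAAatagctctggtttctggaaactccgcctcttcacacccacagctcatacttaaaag
Ifit3: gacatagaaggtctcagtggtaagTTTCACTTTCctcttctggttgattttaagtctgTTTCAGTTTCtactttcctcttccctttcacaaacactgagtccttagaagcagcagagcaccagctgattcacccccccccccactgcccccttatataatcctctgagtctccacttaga
Gbp2: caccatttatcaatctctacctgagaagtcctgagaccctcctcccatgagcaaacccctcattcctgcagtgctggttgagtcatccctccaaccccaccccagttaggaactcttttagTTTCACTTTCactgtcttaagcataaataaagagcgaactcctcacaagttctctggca
Rsad2: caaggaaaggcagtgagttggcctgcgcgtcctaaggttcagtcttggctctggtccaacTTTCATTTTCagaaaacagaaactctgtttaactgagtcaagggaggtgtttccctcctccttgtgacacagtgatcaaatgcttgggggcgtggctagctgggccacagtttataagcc

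Isg15 encodes a ubiquitin-like protein that is attached to other proteins. Its level was 7.34, 7.11 and 7.21 on the Mig arrays and 13.43, 13.29 and 13.75 on the RE arrays, a rise of 6.27 (SE 0.24, adjusted p = 9.94e-09). Ifit3, an antiviral protein with tetratricopeptide repeats, stood at 6.45, 6.37 and 6.47 in Mig and at 12.22, 11.72 and 12.33 in RE (rise 5.66, SE 0.27). The RE levels lay far above every Mig level in both genes. Gbp2, a guanylate-binding GTPase, went from 7.77, 7.42 and 7.19 to 12.66, 12.46 and 13.44 (rise 5.39, SE 0.25). The size of these rises depended on the processing. Across the alternative settings the smallest rise was 3.03 for Ifit3 and 2.46 for Gbp2, both still called. Rsad2 (viperin), which makes a chain-terminating nucleotide, went from 6.55, 6.57 and 6.69 to 12.06, 11.58 and 12.11 (rise 5.31, SE 0.18). Oasl1 had the smallest error of the 15 largest rises: 6.26, 6.09 and 6.25 in Mig, of which 2 arrays were above background, against 10.96, 10.80 and 10.95 in RE (4.70, SE 0.10). Oasl1 and Oasl2 (5.57) are relatives of the oligoadenylate synthetases. Usp18, the protease that removes ISG15 from its targets, rose by 4.77 (SE 0.23). Irf7, the transcription factor that amplifies interferon production, rose by 4.47 (SE 0.15) from a level that was above background on 1 Mig array. Ifi27l2a rose by 5.94 (SE 0.23).

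Among the 15 largest rises were 4 chemokine genes, while another chemokine gene, Ccl6, was among the largest falls. Ccl7 was at 7.49, 6.37 and 6.16 in Mig (2 arrays above background) and at 12.55, 12.07 and 12.82 in RE. Ccl5 was at 7.58, 6.51 and 6.79 in Mig and at 12.78, 10.82 and 11.60 in RE, a rise of 4.77 (SE 0.41). Mig replicate 1 held the highest control level of Ccl2, Ccl5, Ccl7 and Ccl12, all ligands that draw monocytes. Ccl2 (5.07, SE 0.28) and Ccl12 (4.81, SE 0.36) were each above background on 1 Mig array. Outside both families, 2 genes were among the 15 largest rises. Cd59a, which encodes an inhibitor of the complement membrane attack complex, went from 7.88, 8.38 and 7.77 to 12.32, 12.58 and 12.90 (rise 4.59, SE 0.19). Vegfc, a growth factor for lymphatic vessels, went from 6.61, 6.80 and 6.87 to 10.86, 11.15 and 11.77 (rise 4.50, SE 0.21). All 15 kept the 3 RE arrays above the 3 Mig arrays, a condition of their selection. The largest rise of any unit was at a probe with no gene listed, ILMN_1255416, with levels of 8.22, 6.60 and 7.36 in Mig and 14.16, 14.14 and 14.56 in RE (rise 6.89, SE 0.35).

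**Figure D2:**
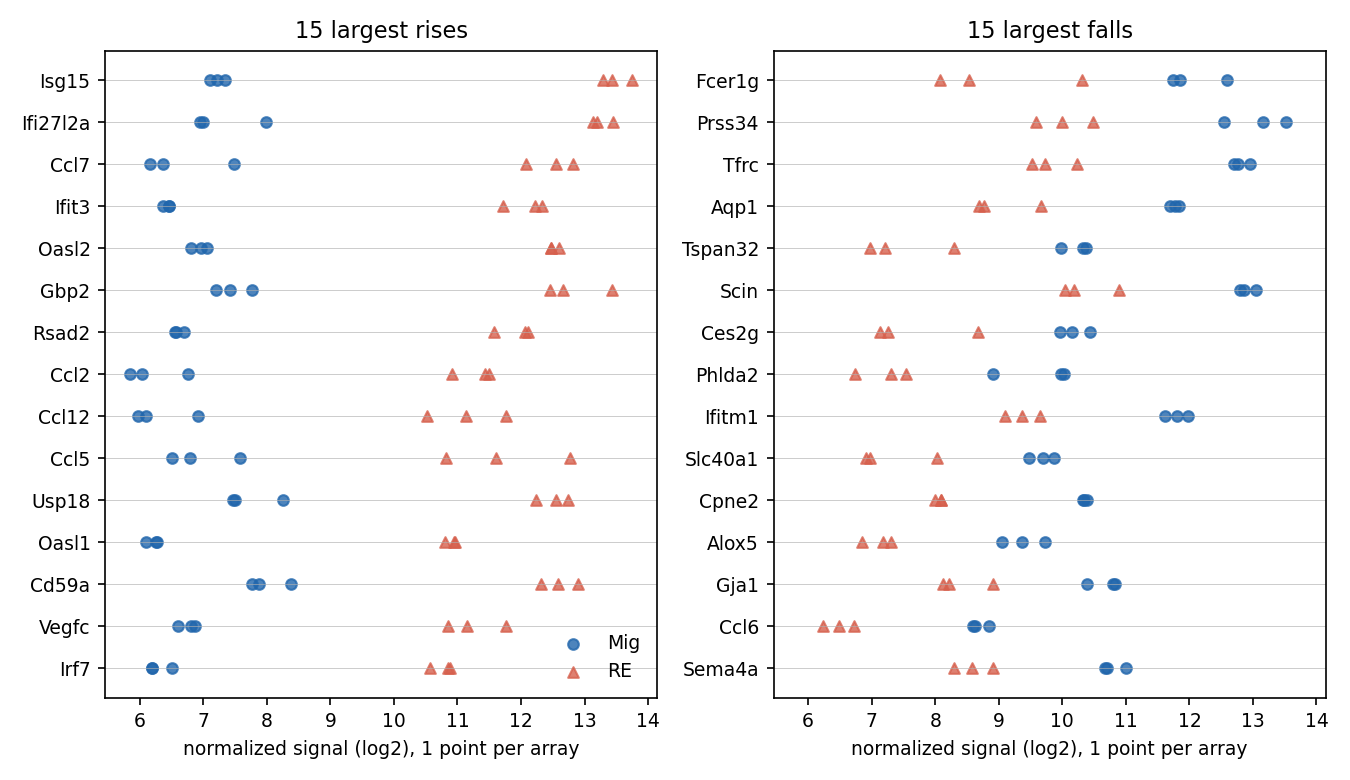
Normalized log2 signal (x axis) of the 15 genes with the largest rise (left) and the 15 with the largest fall (right), 1 row per gene and 1 point per array, with Mig arrays as blue circles and RE arrays as red triangles. The groups are separate in each gene, and among the falls RE replicate 1 is the triangle nearest to the controls for Fcer1g (10.31), Tspan32 (8.30) and Ces2g (8.68).

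Promoter letters were counted in the RefSeq windows from 250 bases before to 50 after the start, on both strands, for the 8807 tested genes that have a window; a match is a description of sequence and not a bound site. ISRE letters were in 17 of 52 promoters (32.7%) of genes that rose at least 8-fold. They were in 8.20% of promoters of genes that rose at least 2-fold, 3.00% of genes not called and 1.67% of genes that fell at least 2-fold. The share was 3.32% among all tested genes, from which the classes come, and 3.49% among all 27025 promoters. Of the 15 largest rises 10 had a window, and 5 of these held the letters; of the 15 largest falls 14 had a window and 0 held them. AP-1 letters (TGANTCA) were in 10.0% of the promoters of 2-fold risers, 6.39% of genes not called and 3.34% of 2-fold fallers. The share was 6.03% among all tested genes and 7.93% among all promoters. STAT-type letters (TTCNNNGAA) were in 11.1%, 7.24% and 7.80% of the same classes (7.28% of all tested genes and 8.47% of all promoters). RUNX letters (TGTGGT), the core of the site that RUNX1 binds, were in 12.4% of 2-fold risers, 13.6% of genes not called and 16.4% of 2-fold fallers. The share was 13.4% among all tested genes and 16.9% among all promoters. A promoter can hold several of these motifs, and overlapping matches of 1 motif were counted once per promoter. The plot of motif shares also shows NF-kB letters and those of E-box (CACGTG), the PU.1 site (GAGGAAG), the E2F site (TTTGGCGC), the CRE (TGACGTCA) and the site of the erythroid GATA factors (AGATAA), counted in the same way. Of all promoters 0.385% held NF-kB, 7.24% E-box, 13.5% PU.1, 0.537% E2F, 1.88% CRE and 11.4% GATA-factor letters. Among all tested genes the shares were 0.443%, 9.69%, 13.3%, 0.829%, 2.85% and 7.36% in that order. Shares above those of all tested genes were not limited to the ISRE in the 52 promoters of 8-fold risers. There AP-1 letters were in 17.3%, and STAT-type, PU.1 and GATA-factor letters in 15.4% each. RUNX (11.5%) and E-box letters (5.77%) were below the share of all tested genes.

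**Figure D3:**
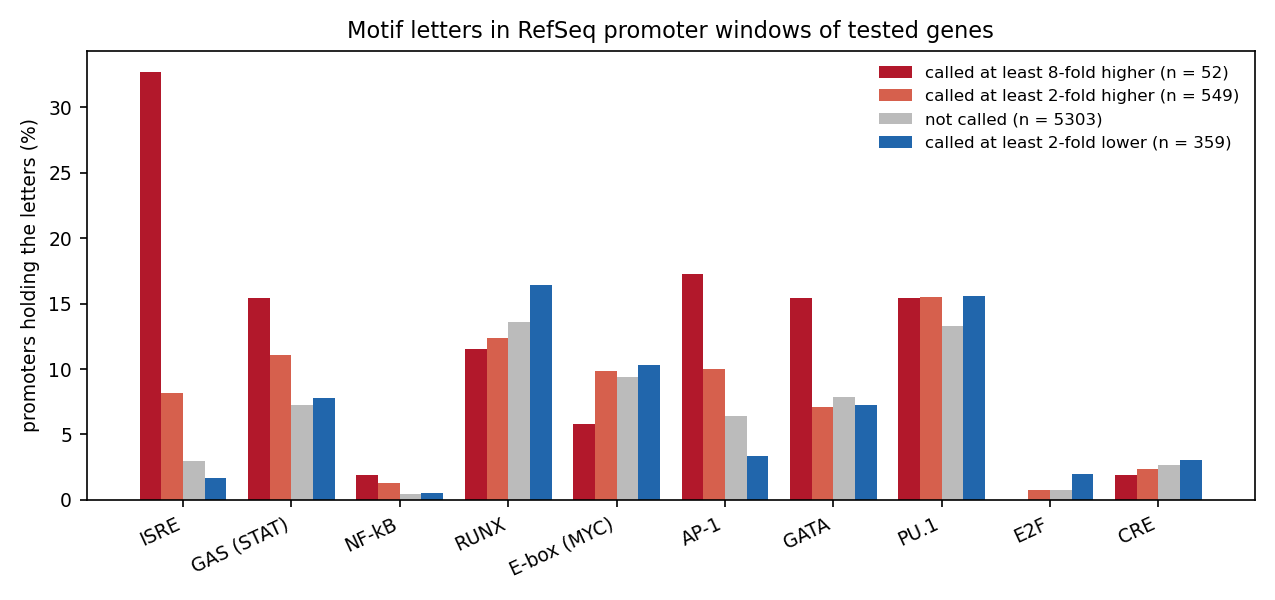
Share of RefSeq promoter windows (y axis, percent) that hold the letters of each of 10 motifs (x axis), for genes called at least 8-fold higher (52), at least 2-fold higher (549), not called (5303) and called at least 2-fold lower (359). The ISRE bars fall from 32.7% through 8.20% and 3.00% to 1.67%, and the RUNX bars lie between 11.5% and 16.4%.

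Some genes were seen in RE cells alone. In 137 genes no probe was above background on any Mig array while the tested probe was above it on all 3 RE arrays, and in 75 genes the reverse held; the filter on dim probes lets such genes through because of the group that has them. Folds are then lower bounds against the lowest detectable signal. The genes named here were chosen for detection in RE alone, so the separation of their arrays is a description. Phf11a, an interferon-inducible PHD-finger gene, was at least 16.9-fold higher (10.47, 9.75 and 10.79 on the RE arrays). Slfn1, a Schlafen family gene, was at least 11.1-fold higher, Apol9b, an apolipoprotein L gene, at least 7.90-fold and Cfb, complement factor B, at least 5.34-fold. Thbs2, encoding the matrix protein thrombospondin 2, was at 8.94, 9.85 and 10.05 in RE (at least 10.2-fold). Hbb-y, the embryonic beta-like globin, was at 8.38, 9.38 and 9.70 in RE (at least 7.42-fold). Rprm, the p53-inducible cell cycle inhibitor reprimo, was at 8.92 ± 0.44 (mean ± SD, n = 3; at least 6.30-fold) and Wfdc12, a secreted whey acidic protein domain gene, at 9.14, 8.90 and 10.72 (at least 10.0-fold).

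Genes lost from detection in RE cells had smaller bounds. Hemgn, a nuclear protein of blood progenitors and erythroid cells, was at 7.65, 8.02 and 8.08 in Mig and under background in RE (at least 3.07-fold lower). Gpr34, a lysophosphatidylserine receptor, was at least 2.47-fold lower. Asb2, a ubiquitin ligase subunit, was at least 2.22-fold lower, with Mig levels of 7.08, 7.08 and 8.18. Vpreb1, the surrogate light chain of early B cells, was at least 1.63-fold lower, and Nxpe2, Il31ra, Inf2 and Tspan2 were at least 1.79-, 1.77-, 1.74- and 1.62-fold lower. These 8 genes were chosen for that loss of detection, so the separation of their arrays is a description.

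Antiviral effector genes beyond the largest risers were higher as a group. Counts in this and the following lists stand beside the shares of all tested units, 18.2% called higher and 20.8% lower. Under median scaling 1236 of all units were called higher and 3462 lower. Of 20 tested members of a list of restriction factors 15 rose, 0 fell and 5 were not called, with a median difference of 0.63 where the median of all units was -0.04 (1 member was called lower with the replicate number as a block). Trex1, a cytosolic DNA exonuclease, went from 7.73, 7.32 and 7.42 to 10.70, 10.15 and 10.74 (rise 3.04, SE 0.18). Bst2 (tetherin), which holds budding virus at the cell surface, rose by 2.82 and Zbp1, a sensor of Z-form nucleic acid, by 2.39. The levels of Trex1, Bst2 and Zbp1 did not overlap between the groups. The rises were uneven within the Schlafen family, where Slfn2 (2.18) rose beside Slfn1 while Slfn3 (-0.26) and Slfn9 (-0.06) were not called. Among 14 PARP and TRIM genes 9 rose, 2 fell and 3 were not called (median 1.01). Trim30a, a ubiquitin ligase of innate immune signalling, went from 8.21, 7.91 and 7.76 to 11.27, 11.07 and 11.18 (rise 3.21, SE 0.11), and the mono-ADP-ribosyltransferase genes Parp14 and Parp12 rose by 2.95 and 2.40. Parp3 rose by 1.48 (SE 0.12), from a level above background on 2 Mig arrays, while of the other poly(ADP-ribose) polymerase genes linked to DNA repair Parp1 was at -0.69 (SE 0.14, adjusted p = 0.00227) and Parp2 at -0.58 (SE 0.12, adjusted p = 0.002). Slfn2, Slfn3 and Slfn9 were picked to describe the family after their values were seen.

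Cytokine and receptor genes rose more often than they fell. Of 34 tested interleukin and receptor genes 12 rose and 4 fell (median 0.29), and 9 rose and 6 fell under median scaling. Of 29 TNF superfamily genes 13 rose and 4 fell (median 0.46), where 18.2% of all units were higher and 20.8% lower. Under median scaling 10 of them rose and 4 fell. Il15, the cytokine that sustains natural killer cells, went from 7.21, 7.17 and 6.89 to 10.69, 10.31 and 10.72 (rise 3.49, SE 0.14, adjusted p = 1.42e-08). The 3 RE levels of Il15 were more than 3 log2 units above every Mig level. Il4, a cytokine of basophils and T cells, went from 8.30, 8.90 and 9.39 to 10.45, 10.01 and 10.76 (rise 1.54, SE 0.34, adjusted p = 0.00367). Il1rn, the antagonist of the IL-1 receptor, rose by 1.79 (SE 0.36) and Il6st, the signalling chain gp130 of IL-6 family receptors, by 1.49 (SE 0.21). The IL-18 receptor chains fell, Il18rap by 0.62 (SE 0.08) and Il18r1 by 0.56 (SE 0.12), as did the IL-17 receptor gene Il17ra, by 0.59. In the TNF superfamily Tnfrsf26 rose by 2.06 (SE 0.15), the ligand gene Tnfsf14 (LIGHT) by 1.55 (SE 0.24) and the death domain receptor gene Tnfrsf21 by 1.45 (SE 0.20). Tnfrsf12a, the receptor of TWEAK, fell by 0.52. The count of falling TNF superfamily members was 2 without Mig replicate 3 and 2 without RE replicate 2.

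Surface adhesion genes were called in both directions. Among 35 tested members 18 rose, 8 fell and 9 were not called (median 0.33), and 11 rose and 9 fell under median scaling. Icam1, the ligand of leukocyte beta-2 integrins, went from 8.56, 7.72 and 7.69 to 10.44, 10.83 and 10.99 (rise 2.76, SE 0.24). F11r (JAM-A) rose by 2.22 (SE 0.14), the tetraspanin gene Cd151 by 2.05 (SE 0.14) and Itga6, a laminin receptor chain, by 2.01 (SE 0.23). The tetraspanin Cd9 went the other way, from 11.04, 10.76 and 10.77 to 9.48, 8.40 and 8.81 (fall by 1.96, SE 0.23). Itgb7, a chain of the gut-homing integrin, fell by 1.80 (SE 0.30) and Selplg, the selectin ligand PSGL-1, fell by 1.33 (SE 0.32). The number of falling members was 4 without Mig replicate 1 or without RE replicate 2, and 5 without Mig replicate 2, without RE replicate 3 or on the authors' normalized values.

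Membrane-binding annexin and S100 genes rose more often than they fell, with fewer calls under median scaling. Of 15 annexin and S100 genes 7 rose and 1 fell (median 0.43), and under median scaling 4 rose, 2 fell and the median was -0.03, beside -0.12 for all units. Several single genes of membrane binding and the cytoskeleton rose under both scalings. Marcks, a substrate of protein kinase C that binds actin, went from 8.63, 7.46 and 7.78 to 10.69, 10.48 and 11.04 (rise 2.78, SE 0.26). Fscn1, the actin-bundling protein fascin, rose by 2.00 (SE 0.34). Anxa6 went from 9.37, 9.13 and 8.64 to 11.37, 11.85 and 12.06 (rise 2.71, SE 0.20) and Anxa5 rose by 2.06 (SE 0.22), both calcium-dependent phospholipid binders. Anxa1, an anti-inflammatory annexin, fell by 1.48 (SE 0.31, adjusted p = 0.00265), and the actin-severing gene Cfl1 fell by 0.85 (SE 0.13).

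Genes of lysosomes and autophagy were called higher more often than lower under both scalings, with fewer calls under median scaling. Of 34 lysosomal genes 19 rose and 3 fell (median 0.59), and 7 rose and 3 fell under median scaling. Grn, the precursor of granulins, went from 10.09, 8.94 and 8.92 to 11.60, 11.63 and 11.54 (rise 2.27, SE 0.29). Mig replicate 1 held the highest control level of Grn, and of Lgmn (7.96, against 6.53 and 6.75), as it did for the monocyte genes Ctss, Lpl and Cd40; the part of monocytic cells in these rises was not tested. Lgmn, an asparagine endopeptidase, rose by 2.02 (SE 0.36) and the cholesterol carrier gene Npc2 by 1.41 (SE 0.15), while Arsb, a sulfatase, fell by 1.40 (SE 0.33) and the glucuronidase gene Gusb fell by 0.81. Of 23 autophagy genes 10 rose and 2 fell (median 0.28); under median scaling 5 rose and 4 fell, and with the replicate number as a block 4 fell. Sqstm1 (p62), the receptor that brings ubiquitinated cargo to autophagosomes, went from 10.19, 9.85 and 10.08 to 11.50, 11.87 and 11.82 (rise 1.69, SE 0.17). Ulk1, the initiating kinase, rose by 1.18 and Wipi1, a phosphoinositide-binding member, by 1.04. Bnip3l, a receptor for removal of mitochondria, fell by 0.62 (SE 0.14). The count of falling autophagy genes was 1 without Mig replicate 3 and 1 without RE replicate 2.

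In the endoplasmic reticulum 5 of 24 genes rose and 2 fell (median 0.20), the rises being close to the 18.2% of all units called higher. Under median scaling 3 were higher and 4 lower (median -0.21), where 1236 of all units were higher and 3462 lower. Xbp1, the transcription factor of the unfolded protein response, went from 11.89, 11.73 and 11.99 to 12.53, 13.36 and 13.25 (rise 1.18, SE 0.22). Syvn1, a ubiquitin ligase of protein disposal, rose by 1.29 (SE 0.13) and the co-chaperone gene Dnajb9 by 1.57 (SE 0.21). The main luminal chaperone genes Hspa5 (-0.07), Hsp90b1 (-0.17) and Pdia4 (0.04) were not called; they were chosen for mention after their values were seen. Counts of rising members were 3 without Mig replicate 2 and 3 without Mig replicate 3. Falling members numbered 0 without Mig replicate 3, and 1 without Mig replicate 1, RE replicate 1 or RE replicate 2 or on the authors' normalized values.

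Growth factor signalling genes of the TGF-beta and BMP family rose in 14 of 28 cases and fell in 2 (median 0.25). Eng (endoglin), an accessory receptor of the family, went from 7.14 ± 0.15 to 10.02 ± 0.34 (mean ± SD, n = 3 each) (rise 2.88, SE 0.17). Inhba, the activin A subunit, went from 7.08, 6.07 and 6.60 (2 of 3 arrays above background) to 9.36, 8.18 and 9.45 (rise 2.41, SE 0.34). Tgfb1 rose by 1.60 (SE 0.23) and its receptor gene Tgfbr2 by 1.35 (SE 0.18), so that a ligand and a receptor were higher together. The targets Id1 (0.01), Id2 (0.14) and Id3 (0.12), inhibitors of helix-loop-helix factors, were not called. These 3 were chosen for mention after their values were seen. The count of falls was 4 under median scaling, 0 on the 6 arrays alone, 0 without Mig replicate 1, 0 without Mig replicate 2 and 1 without any of the RE replicates. Notch and Wnt genes gave 8 rises and 1 fall among 33 (median -0.01), beside 18.2% and 20.8% of all units. The counts were 5 and 3 under median scaling, and 2 fell without RE replicate 3. Tcf7l2, a partner of beta-catenin, went from 6.31, 6.23 and 6.25 (2 arrays above background) to 7.67, 7.70 and 7.71 (rise 1.43, SE 0.14), and Notch1 and Notch4, receptors, rose by 0.87 and 1.01. Hes1, a Notch target, was under background on all RE arrays and at least 1.09-fold lower (adjusted p = 0.00604).

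Transcription and chromatin regulators changed gene by gene. Homeobox genes gave 10 rises and 2 falls among 24 (median 0.02), and 6 rises and 3 falls under median scaling. Zfhx3, a large zinc finger homeobox factor, went from 6.86, 6.81 and 6.60 to 8.30, 9.31 and 9.62 (rise 2.32, SE 0.32). Hhex, a homeobox factor of blood progenitors, went from 9.76, 9.87 and 9.65 to 11.44, 11.19 and 11.11 (rise 1.49, SE 0.13). Hlx rose by 1.32 and Satb1, a chromatin organizer of stem cells and T cells, by 1.24, whereas the leukaemia-associated Hoxa9 (-0.17) and Meis1 (-0.07) were not called. The homeobox falls numbered 1 on the 6 arrays alone and without Mig replicate 2, Mig replicate 3 or RE replicate 1. Of 54 chromatin modifier genes 10 rose and 12 fell (median -0.08; 3 and 15 under median scaling), close to the 18.2% and 20.8% of all units. Dnmt3b, a de novo DNA methyltransferase, went from 9.87, 10.26 and 10.38 to 8.81, 9.02 and 8.96 (fall by 1.24, SE 0.15). The arginine methyltransferase gene Prmt5 fell by 1.11 (SE 0.13) and Uhrf1, which guides maintenance methylation, fell by 0.86. The histone demethylase genes Kdm6a and Kdm1a rose by 1.19 (SE 0.22) and 1.07 (SE 0.15), and the deacetylase gene Hdac5 by 1.17 (SE 0.21). Hoxa9 was named after its value was seen.

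Clock output genes and some nuclear receptors were higher, with 8 rises, 0 falls and 17 not called among 25 (median 0.10; 1 fall under median scaling, on the 6 arrays alone and with the replicate number as a block). Dbp, a PAR bZIP factor of circadian output, went from 7.80, 8.04 and 8.14 to 10.31, 10.66 and 10.64 (rise 2.54, SE 0.12, adjusted p = 5.07e-08). Nfil3, which competes with it for DNA, rose by 1.47 (SE 0.22) and the clock kinase gene Csnk1e by 1.27 (SE 0.11). The core clock genes Arntl (-0.04), Clock (0.20), Per1 (-0.02) and Per2 (-0.19), chosen for mention after their values were seen, were not called.

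Enzymes of detoxification and lipid metabolism split within families. Of 38 antioxidant and glutathione genes 14 rose and 13 fell (median 0.02). The theta-class transferase Gstt1 went from 7.59, 8.07 and 8.04 to 10.87, 11.36 and 11.69 (rise 3.41, SE 0.27), and Gstt2 from 8.56, 8.38 and 8.38 to 10.86, 10.79 and 10.94 (rise 2.42, SE 0.09). Within the mu class Gstm2 rose by 2.31 (SE 0.29) while Gstm5 fell by 1.55 (SE 0.27). Mgst3, a microsomal transferase, fell by 1.73, Gclm, a subunit of the enzyme that starts glutathione synthesis, fell by 1.41 and Gsto1, of the omega class, fell by 1.27. Gpx3, the secreted glutathione peroxidase, rose by 1.94 (SE 0.28). With falls at 15 under median scaling, at 15 with the replicate number as a block and at 8 without Mig replicate 2 or on the 6 arrays alone, the balance of this list had no settled direction. Lipid genes gave 8 rises and 12 falls among 35 (median -0.16), beside 18.2% and 20.8% of all units. Under median scaling the counts were 3 and 17, and 5 rose without Mig replicate 2 or 3. The fatty acid carrier gene Fabp5 rose by 2.29 (SE 0.25) and the lipase gene Pnpla2 by 1.33 (SE 0.11). Acsl3, which activates fatty acids, went from 8.72, 9.06 and 9.09 to 7.36, 7.14 and 7.53 (fall by 1.61, SE 0.12), and the desaturase genes Fads2 and Scd1 fell by 1.43 and 1.23.

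Among proteases and their inhibitors 10 of 25 rose and 2 fell (median 0.44), and 7 rose and 3 fell under median scaling. Serpinb1a, an intracellular inhibitor of neutrophil elastase, went from 9.92, 9.99 and 10.11 to 12.79, 12.84 and 13.47 (rise 3.03, SE 0.17). Serpinb6a, an inhibitor of the same clade, rose by 1.64 (SE 0.10) and the collagenase gene Mmp13 by 2.26 (SE 0.38), from a level above background on 2 Mig arrays. Across the alternative settings the smallest Mmp13 rise was 0.78. Mmp14, a membrane-bound metalloproteinase, fell by 1.09 (SE 0.29). Rises numbered 6 without Mig replicate 2 and 6 without Mig replicate 3, and falls 1 without Mig replicate 1 or 3. G protein-coupled receptors and RGS genes gave 10 rises and 7 falls among 35 (median 0.06), beside 18.2% and 20.8% of all units. Under median scaling the counts were 9 and 8, and falls numbered 4 without RE replicate 2 and on the authors' normalized values. Rgs1, which shortens chemokine receptor signals, went from 8.55, 8.25 and 8.72 to 11.84, 11.16 and 12.30 (rise 3.26, SE 0.29), and Rgs16 rose by 1.91 (SE 0.12) from a level above background on 1 Mig array. Lpar6, a lysophosphatidic acid receptor, rose by 2.13 (SE 0.24). Cx3cr1, the fractalkine receptor, fell by 1.09 (SE 0.21) and Adgrg3, an adhesion receptor of granulocytes, fell by 0.92. Semaphorin and guidance genes gave 5 rises and 2 falls among 18, beside the same shares of all units. Rises numbered 3 under median scaling, on the 6 arrays alone, without Mig replicate 3 or without RE replicate 1.

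The largest falls included genes of mast cells, basophils and erythroid cells. The promoters of the 2 largest fallers are shown beside those of the risers, again 180 bases before the start from RefSeq (GRCm38.p6). The Fcer1g promoter (chr1:171234350-171234529, minus strand) holds no RUNX, GATA or PU.1 letters in this stretch. The Prss34 promoter (chr17:25298214-25298393, plus strand) holds GATA letters, in capitals, that begin 31 bases before the start. Neither holds ISRE letters.
Fcer1g: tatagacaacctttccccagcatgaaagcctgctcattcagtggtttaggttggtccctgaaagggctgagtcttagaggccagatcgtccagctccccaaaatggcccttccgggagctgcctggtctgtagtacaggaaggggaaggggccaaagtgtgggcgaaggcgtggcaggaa
Prss34: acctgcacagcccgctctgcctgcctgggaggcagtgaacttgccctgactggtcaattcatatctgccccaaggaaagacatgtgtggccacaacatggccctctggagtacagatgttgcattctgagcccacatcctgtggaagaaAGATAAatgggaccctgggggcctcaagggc

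Fcer1g, the signalling chain of Fc receptors, stood at 12.59, 11.74 and 11.86 in Mig and at 10.31, 8.54 and 8.07 in RE, so RE replicate 1 fell least. Prss34, a basophil protease, went from 13.17, 13.52 and 12.55 to 9.99, 10.49 and 9.58. Tfrc, the transferrin receptor, went from 12.77, 12.96 and 12.71 to 10.24, 9.72 and 9.52 (fall by 2.98, SE 0.17, adjusted p = 1.92e-07). No RE array reached a Mig level in these 3 genes. Fewer cells of a type and less RNA per cell cannot be told apart in sorted bulk samples. Aqp1, a water channel of red cells, stood at 11.70, 11.84 and 11.78 in Mig and at 9.66, 8.69 and 8.77 in RE, and the iron exporter gene Slc40a1 (ferroportin) fell by 2.38 (SE 0.25). Scin, a gelsolin-family actin-severing protein, fell by 2.53 and Alox5, the leukotriene-forming lipoxygenase, fell by 2.27 (SE 0.21). Gja1 (connexin 43) went from 10.39, 10.83 and 10.80 to 8.91, 8.22 and 8.12 (fall by 2.26, SE 0.19), and the tetraspanin gene Tspan32 fell by 2.73. Sema4a fell by 2.20 (SE 0.23), Phlda2 fell by 2.44 and Ces2g, a carboxylesterase, fell by 2.49. Ifitm1, a member of an interferon-inducible antiviral family, went from 11.61, 11.99 and 11.80 to 9.65, 9.36 and 9.10 (fall by 2.43, SE 0.15). Across the alternative settings its smallest difference was -1.05. The chemokine Ccl6 went from 8.59, 8.85 and 8.62 to 6.23, 6.72 and 6.48 (fall by 2.21, SE 0.14), with 2 of 3 RE arrays above background. Cpne2, a calcium-dependent membrane binder, had the smallest error among these falls, at 10.33, 10.39 and 10.34 in Mig against 8.09, 7.99 and 8.09 in RE (SE 0.12).

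Spliceosome and nuclear transport genes fell in most cases and rose in 0. Of 39 spliceosome genes 0 rose, 29 fell and 10 were not called (median -0.65), and under median scaling 33 fell. Among called members those of the Lsm ring, which binds U6 RNA and decapping factors, had the largest falls. Lsm5 went from 11.84, 11.78 and 12.02 to 10.83, 10.57 and 10.60 (fall by 1.22, SE 0.10), and Lsm3, Lsm6 and Lsm2 fell by 1.10, 1.08 and 1.05. The RE arrays lay below every Mig array for all 4. Of 29 nuclear transport genes 0 rose, 21 fell and 8 were not called (median -0.64). Ipo5, an importin, went from 10.10, 10.11 and 10.36 to 8.48, 8.56 and 8.81 (fall by 1.57, SE 0.11, adjusted p = 1.23e-06). Rcc1, the exchange factor of RAN, fell by 1.27 (SE 0.16) and the pore subunit gene Nup160 fell by 1.24 (SE 0.13), while the main exportin gene Xpo1, named after its value was seen, was at 0.11 and not called.

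Lists of protein synthesis and folding genes also had more falls than rises. Of the genes read as housekeeping controls, Hprt (fall by 0.80, adjusted p = 0.000145) and Tbp (fall by 0.62, adjusted p = 0.00268) moved with these lists and Gapdh was at 0.26, or -0.09 under median scaling; the part of RNA quality in the falls was not tested. Of 28 aminoacyl-tRNA synthetase genes 18 fell and 0 rose (median -0.45; 1 rise with the replicate number as a block, on the authors' normalized values, without Mig replicate 2 or without RE replicate 3). The falls included cytosolic enzymes such as Farsb, at 11.47, 11.67 and 11.65 in Mig and 10.67, 10.64 and 10.61 in RE (fall by 0.96, SE 0.09), and Lars, which fell by 0.93. They also included mitochondrial ones, Mars2, which fell by 1.15 (SE 0.17), and Rars2, which fell by 1.02 (SE 0.12). Of 29 translation factor genes 16 fell and 1 rose (median -0.53). Eef1e1, a scaffold of the synthetase complex, fell by 1.08 (SE 0.11) and the initiation factor gene Eif3a fell by 0.86 (SE 0.13). The exception, Eif2b2, a subunit of the exchange factor of eIF2, went from 9.42, 9.35 and 9.55 to 10.34, 10.43 and 10.71 (rise 1.05, SE 0.13). Of 27 chaperonin and co-chaperone genes 17 fell and 0 rose (median -0.48). Hspd1, the mitochondrial chaperonin, went from 12.88, 13.13 and 12.91 to 12.14, 11.91 and 11.59 (fall by 1.09, SE 0.15). The HSP90 co-chaperone genes Fkbp4 and Ppid fell by 1.16 and 1.13, and Cct6a, a subunit of the cytosolic chaperonin, fell by 0.96.

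In mitochondria 15 of 26 citric acid cycle genes fell and 0 rose (median -0.56). Idh3a, the catalytic subunit of NAD-dependent isocitrate dehydrogenase, went from 9.24, 9.57 and 9.48 to 8.49, 8.26 and 8.13 (fall by 1.14, SE 0.13), and its partner subunit genes Idh3b (-0.02) and Idh3g (-0.09), named after their values were seen, were not called. The succinate-CoA ligase subunit gene Suclg2 fell by 1.02 (SE 0.16) and the fumarase gene Fh1 fell by 0.77 (SE 0.14). Of 31 genes of mitochondrial import and dynamics 17 fell and 1 rose (median -0.35; 2 rises on the authors' normalized values and with the replicate number as a block, and 0 under median scaling, on the 6 arrays alone, without Mig replicate 2 or 3 and without RE replicate 2 or 3). The single rise, of the fission gene Fis1 (0.41, adjusted p = 0.0305), turned to -0.05 under median scaling and was lost without Mig replicate 2 (0.27, adjusted p = 0.130), Mig replicate 3, RE replicate 2 or RE replicate 3. The small chaperones of the intermembrane space led the falls, with Timm8a1 going from 11.59, 11.73 and 11.64 to 10.25, 10.15 and 9.81 (fall by 1.58, SE 0.12), and Timm9 falling by 1.28 (SE 0.15). Tfam, which packages mitochondrial DNA, fell by 1.02 (SE 0.14).

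**Figure D4:**
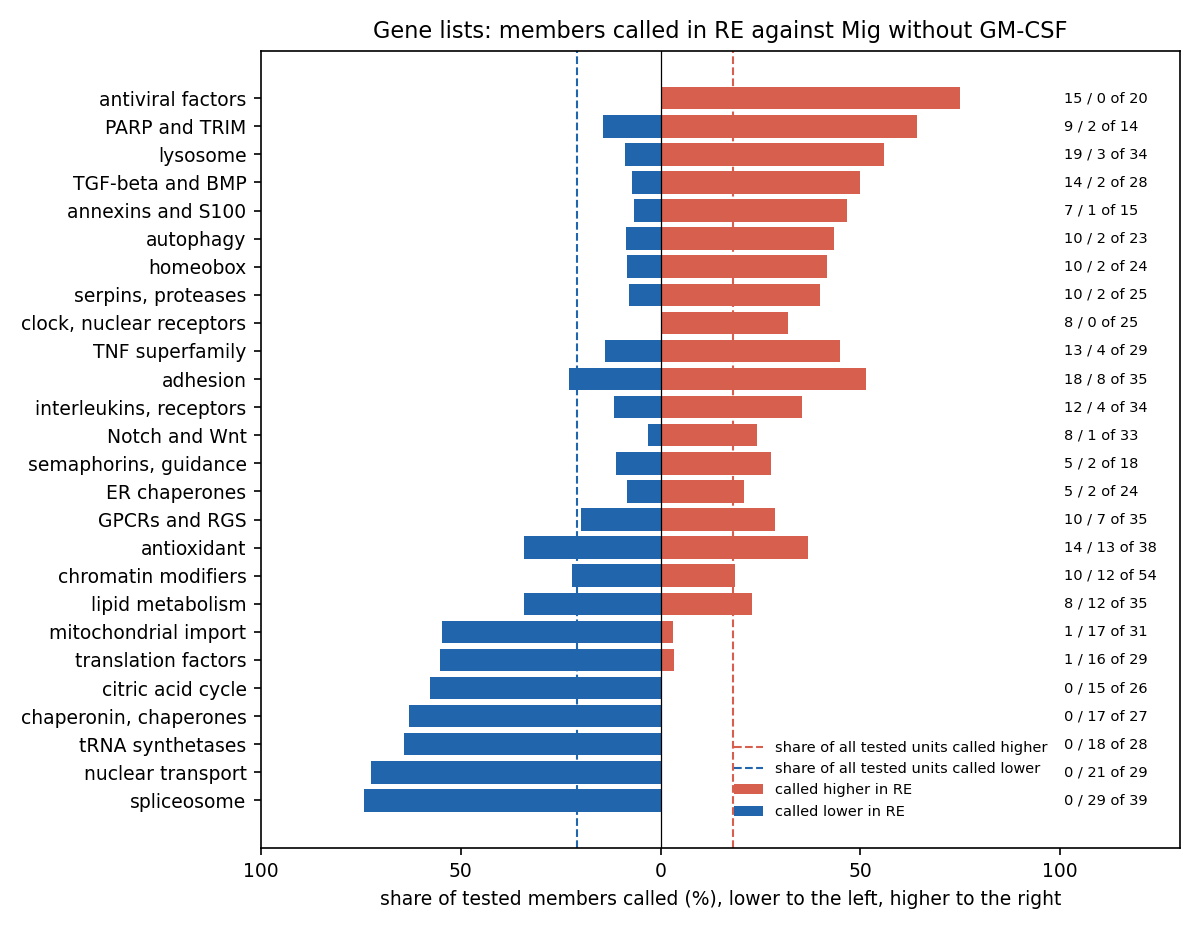
Share of the tested members of 26 gene lists (y axis) called higher in RE (red, to the right) or lower (blue, to the left), in percent of tested members (x axis), with the counts higher and lower of the number tested at the right. Dashed lines mark the shares among all tested units, 18.2% higher and 20.8% lower; 29 of 39 spliceosome genes were lower and 15 of 20 antiviral factors higher.

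Some bright genes had differences near 0. The median SE of the difference over all tested units was 0.12. Among the brightest 25% of genes, the 95% intervals nearest to 0 were those of Nme2, Brms1, Rps24, Rpl37, Ap4s1 and Emc3. Rps24, a ribosomal protein gene, was at 14.59, 14.66 and 14.56 in Mig and 14.62, 14.49 and 14.59 in RE, and its interval ran from -0.20 to 0.13. Emc3, a subunit of a membrane protein insertase, was at 11.24, 11.16 and 11.26 against 11.15, 11.20 and 11.19. These genes were chosen for that pattern, and the choice rests on the quantile normalization: under median scaling Brms1 (-0.43, adjusted p = 0.0220), Nme2 (-0.43, adjusted p = 0.0150) and Emc3 (-0.48, adjusted p = 0.0317) were called lower, and on the authors' normalized values Nme2 was called higher (0.27, adjusted p = 0.0183).

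For a list of genes chosen as typical of progenitors, the direction of the calls depended on scaling. None of the 9 tested members was itself a marker used in the sort. Of 9 tested progenitor genes 3 were called higher, 0 lower and 6 neither, where 39% of all units were called. Under median scaling 1 rose and 3 fell. The array had no probe named Kit, and Flt3 and Ly6a were not tested. Cd34 went from 7.68, 7.77 and 7.76 to 9.65, 9.89 and 9.55 (rise 1.96, SE 0.11). Mpo, the granule peroxidase of myeloid progenitors, was at 14.09, 13.21 and 13.62 in Mig and 13.28, 13.31 and 12.04 in RE and was not called (-0.77, adjusted p = 0.108). Gata2 (-0.62, adjusted p = 0.106), Myb (-0.08), Meis1, Sox4 (0.13) and Lmo2 (0.07) were not called either, but under median scaling Lmo2 (-0.36, adjusted p = 0.0244), Mpo (-1.17, adjusted p = 0.0186) and Gata2 (-1.07, adjusted p = 0.0187) were called lower. The summed linear signal of the 9 genes was 19204 to 25581 in Mig and 12577 to 19595 in RE. The rises of Tal1 (0.88) and Cd48 (0.78) were lost under median scaling (0.45, adjusted p = 0.188, and 0.44, adjusted p = 0.0906). In the fit with replicate numbers as a block 1 progenitor gene, Mpo, was called lower (adjusted p = 0.0236), and 1 gene was without Mig replicate 3.

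Most lineage genes of the negative gate were dim. Cd3e, Cd5, Ms4a1, Itgam and Klrb1c lay between 5.92 and 6.39 on all 6 arrays, Cd8b1 between 6.24 and 6.60, and neither Cd8b1 (-0.01) nor Ptprc (0.11), the pan-leukocyte gene CD45, was called. The 1 lineage gene that was called was Ly6c1, a surface gene of monocytes and endothelium: 12.22, 8.97 and 10.40 in Mig and 12.82, 12.93 and 12.82 in RE (rise 2.33, SE 0.71, adjusted p = 0.0219). The summed signal of the 8 tested lineage genes was accordingly 5406, 1136 and 1977 in Mig and 7851 to 8414 in RE. Some other genes of monocytes and macrophages, picked from several lists after their values were seen, shared the high value on Mig replicate 1. Such genes were not uniformly higher in RE, since Cx3cr1 fell by 1.09 (adjusted p = 0.00146). Ctss, a cathepsin of antigen-presenting cells, was at 9.21, 6.86 and 6.98 in Mig and 9.92, 9.38 and 9.69 in RE. Lpl, lipoprotein lipase, was at 10.01, 7.81 and 7.92 against 11.12, 10.29 and 11.28. Cd40, the receptor of CD40 ligand, was at 8.33, 5.95 and 6.43 against 9.42, 8.03 and 8.93, and the macrophage elastase gene Mmp12 at 9.69, 8.30 and 7.11 against 10.87, 9.96 and 10.47. Each of the 5 was called higher (Ctss 1.98, Lpl 2.32, Cd40 1.89, Mmp12 2.07). Without Mig replicate 1 the differences grew to 3.18 for Ly6c1, 2.74 for Ctss, 3.03 for Lpl, 2.60 for Cd40 and 2.73 for Mmp12.

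Without Mig replicate 2 or 3 these calls were lost, although the differences stayed between 1.41 and 2.26. With the replicate number as a block all 5 were called (adjusted p between 0.0013 and 0.0050). Without Mig replicate 2 the adjusted p was 0.0913 for Ly6c1, 0.0577 for Ctss, 0.0932 for Lpl, 0.0689 for Cd40 and 0.0620 for Mmp12. Without Mig replicate 3 it was 0.0605, 0.0559, 0.0882, 0.0602 and 0.101 in that order. Leaving out an RE array also ended some of these calls: Lpl without RE replicate 1 (0.0614) or RE replicate 3 (0.0683), Mmp12 without RE replicate 1 (0.0718) or RE replicate 3 (0.0534), Cd40 without RE replicate 1 (0.0578) and Ly6c1 without RE replicate 2 (0.0579). All 5 calls were lost under median scaling, with adjusted p between 0.0549 (Cd40) and 0.0780 (Mmp12). Mig replicate 1 also held the highest control level of Elane, neutrophil elastase, at 12.39, 9.88 and 11.96 in Mig and 9.39, 9.72 and 9.32 in RE. Elane fell by 1.93 (adjusted p = 0.0184), a call lost without Mig replicate 1 (-1.44, adjusted p = 0.0757) or Mig replicate 3 (-1.66, adjusted p = 0.0723). The part of cell composition in these values was not tested.

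Stromal and endothelial genes were mostly at low signal, with 6 rises, 0 falls and 8 not called among 14 (1 fall under median scaling, with the replicate number as a block, without Mig replicate 3 or without RE replicate 1). Sparc, a matrix glycoprotein, was under background in Mig and at 8.13 ± 0.89 (mean ± SD, n = 3) in RE (at least 3.66-fold higher, adjusted p = 0.000223). Pecam1, which progenitors and endothelium both express, was at 9.49, 9.37 and 9.14 in Mig and at 9.66, 11.43 and 11.36 in RE (rise 1.48, lost under median scaling, 1.04, adjusted p = 0.0853). Tek, the angiopoietin receptor, rose by 0.86, and Emcn was at least 1.67-fold higher. The endothelial genes Tie1 (at least 1.19-fold higher, adjusted p = 0.0165) and Cdh5 (RE above background on 1 array, adjusted p = 0.0188) were called higher. These calls were lost without RE replicate 2 for Tie1 and without Mig replicate 3 or RE replicate 3 for Cdh5. The endothelial gene Vwf went the other way without a call (-0.58, adjusted p = 0.0939). It was called lower under median scaling (-0.72, adjusted p = 0.0436) and with the replicate number as a block (adjusted p = 0.0475). Of the 8 genes not called, Kdr (0.09), Col1a2 (0.19), Lepr (-0.02), Cxcl12 (-0.07) and Plvap (-0.09) had the smallest differences, and none of these 5 exceeded 6.90 on any of the 6 arrays. Their summed signal with the other 9 members was 1614 to 1850 in Mig and 2201 to 4389 in RE. The part of such cells in the rises of Eng, Vegfc and Thbs2 was not tested.

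The 3 RE arrays were not equally far from the controls. Among the 427 genes that fell at least 2-fold, RE replicate 1 was the highest of the 3 RE arrays in 62.5% of genes, and the median differences from the Mig mean were -1.11, -1.22 and -1.30 for replicates 1 to 3. Among the 693 genes that rose at least 2-fold, RE replicate 3 was the highest in 52.2%, where its median difference from the Mig mean was 1.70 and that of RE replicate 1 was 1.49. Over all tested genes the corresponding shares were 42.3% for RE replicate 1 and 30.6% for RE replicate 3. RE replicate 3 also had the highest share of probes above background (60.1%) and RE replicate 1 the lowest (47.7%).

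The effect of RUNX1-ETO without GM-CSF was set against its effect with GM-CSF, from the 6 other arrays, which also enter the filter, the normalization and the estimate of spread behind the values above. With GM-CSF 43.4% of units were called. The difference between the effects passed limma's interaction test at an adjusted p of 0.05 for 34 units, 0.290% of those tested (1098 at an unadjusted p of 0.05), and 21 of them were called without GM-CSF as well. In all 34 the RE minus Mig difference was lower without GM-CSF than with it. With the replicate number as a block 77 units passed. The count ranged from 8 (without Mig replicate 1) to 180 (without RE replicate 3), and was 11, 18, 14 and 10 without Mig replicate 2, Mig replicate 3, RE replicate 1 and RE replicate 2.

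Car4, a membrane-anchored carbonic anhydrase, had the smallest interaction p of genes called here. It was under background in Mig and at 7.35, 8.06 and 7.84 in RE, at least 2.81-fold higher, and reached 11.53, 11.75 and 11.02 in RE cells with GM-CSF. Cdkn2b, the cyclin-dependent kinase inhibitor p15, was at 6.59, 6.39 and 6.65 in Mig and 6.93, 6.99 and 7.34 in RE without GM-CSF (rise 0.54, SE 0.12). With GM-CSF its RE levels were 8.85, 8.99 and 8.93 (rise 2.44). Sema7a rose by 0.81 without and 3.20 with GM-CSF, and the caveolin gene Cav1 by 0.83 and 3.20, each above background on 1 Mig array. Fermt2 (kindlin-2), an activator of integrins, was under background in Mig and at least 1.59-fold higher in RE without GM-CSF, with RE levels of 6.80, 6.72 and 7.28. Tnfsf4 (OX40 ligand) reversed: it was at 7.12, 7.49 and 7.30 in Mig and 6.66, 6.58 and 6.67 in RE without GM-CSF (fall by 0.67, SE 0.19, adjusted p = 0.0164), and rose by 1.42 with it. The fall without GM-CSF was lost without Mig replicate 2 (-0.57, adjusted p = 0.0666).

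**Figure D5:**
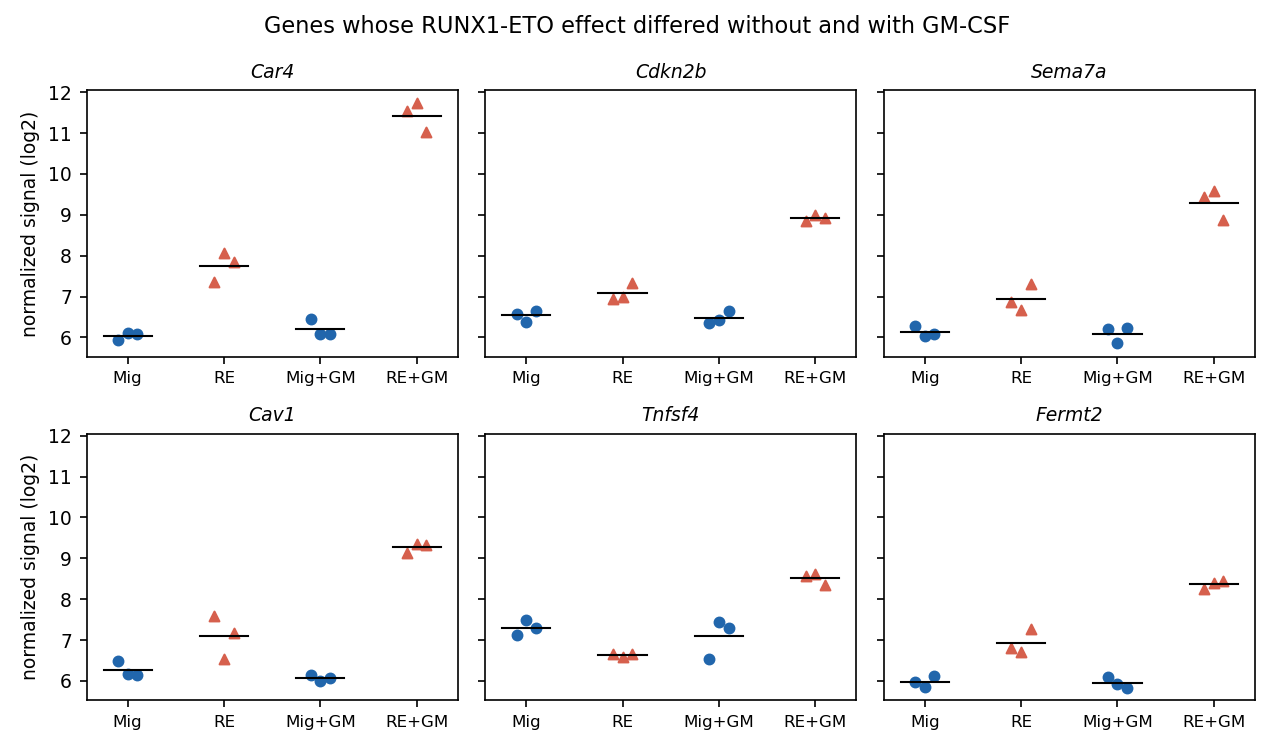
Normalized log2 signal (y axis) of 6 genes in the 4 groups (x axis), 1 point per array with Mig cells as blue circles and RE cells as red triangles, and lines at the group means. In the RE groups Car4 lies at 7.35 to 8.06 without and 11.02 to 11.75 with GM-CSF, and Tnfsf4 is below the controls without GM-CSF and above them with it.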

How the data were processed

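RNA of 12 sorted cell samples was measured on Illumina bead arrays, 3 per group, and the 6 without GM-CSF were compared here. The deposited intensity values are bead-summarized probe signals before normalization, per the file headers; a second deposited table holds the authors' normalized intensity values, with the method not given in the sources used here. No detection p-values were used, so background was estimated on each array from the mode and lower flank of its signals, and probes above it (p of 0.05) on at least 3 of 12 arrays were kept. Signals were corrected by normexp with an offset of 50, quantile-normalized and taken to log2. Each gene was represented by its kept probe with the highest mean. Probe names came from the platform annotation, in which 23978 probes have 1 gene, 0 have several and 1719 are not listed. Group means of all 12 arrays were fitted with limma 3.58.1 in R 4.3.3, and two-sided p-values were adjusted by Benjamini-Hochberg over 11729 units (threshold 0.05). The fit was also run on arrays simulated after normalization and without replicate effects. That run does not bear on the scaling or on the pairing of replicates. The number of arrays limits the precision.

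Members and lists were chosen with earlier results of these data known. Genes were named by rule. These were every probe of Runx1 and Runx1t1, the 15 largest rises and 15 largest falls among called genes without overlap, and up to 4 called members per list and direction. They were also 6 bright genes with intervals nearest 0, up to 8 genes detected in 1 group alone, and the 6 called genes with the smallest interaction p; of these, genes that lost their call without 1 array were mostly counted and not named. A few others are said to be named after their values were seen. Same-numbered Mig and RE arrays deviated together (correlations of 0.22, 0.12 and 0.47). Mig replicate 2 deviated with RE replicate 1 to the same degree (0.12), and the other pairs of unlike number ran from -0.37 to -0.03. The numbers were therefore taken as a possible pairing. The main fit leaves it out, and the fit with the replicate number as a block is an alternative. The others were median scaling, the authors' normalized values, other filters and offsets, the 6 arrays alone, array weights, the mean of a gene's probes, a minimum fold change, Holm adjustment and leaving out each array.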

Additional observations from a re-analysis of the deposited data

Results flagged for a closer look

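The difference between the RUNX1-ETO effect without and with GM-CSF passed limma's interaction test for 34 units. The effect without minus with GM-CSF was -3.52 for Car4 (interaction adjusted p = 0.000358), -1.90 for Cdkn2b (0.000770), -2.39 for Sema7a (0.00663), -2.38 for Cav1 (0.00838), -2.08 for Tnfsf4 (0.0111) and -1.47 for Fermt2 (0.0134), all on the log2 scale. The genes were chosen for the smallest interaction p, and the differences of Car4 and Fermt2 rest on Mig levels under background.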

How the results depend on the processing

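The count of called units was 5174 with the replicate block (2404 higher, 2770 lower), which kept 99.5% of the calls. Median scaling kept 79.4% of them and the authors' normalized values 88.6%, and 0 were called in the opposite direction under the 17 alternatives that keep 1 probe a gene. Calls fell to 988 with a minimum fold change of 1.5 (618 higher, 370 lower) and to 751 with Holm adjustment (455 higher, 296 lower). Under median scaling 1236 units were higher. Units at least 2-fold higher numbered 477 under median scaling and 396 with Holm adjustment. Units at least 2-fold lower numbered 1192, 214 and, on the authors' values, 255. The interaction count was 12 under median scaling, 17 with a stricter filter, 18 with an offset of 16, 77 with the replicate block, 112 with array weights and 5 with Holm adjustment. Without 1 array, calls ranged from 3799 to 4438, higher calls from 1747 to 2014, lower calls from 1990 to 2424, 2-fold rises from 691 to 809, 2-fold falls from 413 to 543 and interaction calls from 8 to 180. Of 221 called genes selected by the naming rule, 30 lost the call without some 1 array. Direction turned, for genes called in either setting, under median scaling for Brms1 (-0.43), Fis1 (-0.053), Dpysl2 (-0.0031), Lmo2 (-0.36) and Gapdh (-0.086), on the authors' values for Nme2 (0.27) and with the mean of a gene's probes for Sel1l (-0.067). The cause was not tested. Dim probes limit folds to lower bounds.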
